A study of Drosophila melanogaster with 36 samples.

Results

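The dpr, DIP, beat and side genes encode neuronal surface proteins of the immunoglobulin superfamily that bind one another in pairs. Members were the genes of Drosophila melanogaster with these symbols and a mean level of at least 1 TPM (the share of a library's transcripts, corrected for transcript length) over all libraries. Of 54 such genes, 50 qualified: 21 of 21 dpr genes, 10 of 11 DIP genes, 12 of 14 beat genes and 7 of 8 side genes. They were 50 of the 8649 genes that reached this mean, out of 13817 genes measured.

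Dpr proteins (named for a defective proboscis extension response) bind DIP proteins (Dpr-interacting proteins), each Dpr binding a small set of DIPs. Beat proteins (for beaten path) bind Side proteins (for sidestep) in the same manner; beat-Ia and side were first known from motor axons, which follow side on their targets and need beat to leave their bundle. These families mark neuron types and help them to find and hold synaptic partners. LNv neurons pass daily time to other neurons through the peptide PDF, and the small LNv neurons remodel their dorsal arbors over the day.

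The libraries came from sorted LNv neurons, the ventral lateral clock neurons, of female flies with w1118 background, given as wild type in the labels and carrying mGFP, a green fluorescent protein, under a Pdf driver. The 3 conditions were 1.5x sucrose-yeast food at 18 °C (HC18), 0.5x sucrose-yeast food at 25 °C (LC25) and 1.5x sucrose-yeast food at 25 °C (HC25), with the pairing of code and condition read from the code and the design text. Each condition had 12 libraries, 1 for every 2 h of zeitgeber time (ZT, time on the flies' light schedule), the first at ZT02. Day stands below for ZT0 to ZT12 and night for ZT12 to ZT24, since the labels do not state the light schedule. The flies were raised in these conditions. Their ages and the number of brains per library were not given, and a Pdf driver marks both small and large LNv neurons, whose RNA cannot be told apart here. Fewer cells of a type and less RNA per cell cannot be told apart either.

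The 8 LNv and clock markers summed to between 77142 and 301773 TPM, and 7 of the 8 had a called daily rhythm. The 8 glial markers had a median sum of 35.1 TPM in HC18, 22.7 TPM in LC25 and 31.2 TPM in HC25, with a highest value of 1306 TPM in HC25 at ZT08. The 11 measured transmitter genes of other neurons summed to between 545 and 1415 TPM. Markers of other clock neurons summed to a median of 766 TPM and a highest value of 1970 TPM, in HC18 at ZT24, and fat body markers reached 188 TPM in HC25 at ZT08. Photoreceptor markers reached 854 TPM in LC25 at ZT18, muscle markers stayed at or below 14.1 TPM and haemocyte markers at or below 96.1 TPM. Of the haemocyte markers, Pxn alone reached 93.7 TPM. The highest transmitter genes were Tbh and Tdc2, of octopamine and tyramine synthesis, at 676 and 133 TPM, and prt at 94.2 TPM. NPF, listed for other clock neurons, averaged 684 TPM and ranged from 195 to 1385 TPM. ChAT, which makes acetylcholine, was at 47.9 TPM and VGlut, the glutamate transporter, at 0.341 TPM. No marker on these lists was at 0 in all libraries. The HC25 library of ZT06 stood apart, with Pdf at 7.68% of its TPM and a Spearman correlation with other libraries of 0.837 in the median. The members summed to 951 TPM there, against 1499 to 2622 TPM in the other 35 libraries. Of the 50 members, 35 had their lowest HC25 value in that library, a count not made over all genes. Values are shares of a library, so its low values enter the HC25 time courses below.

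The LNv libraries held RNA of a broad set of these genes, and how much of it came from other cells was not tested. The dpr genes summed to 991 ± 161 TPM, the beat genes to 568 ± 97.6 TPM, the DIP genes to 285 ± 115 TPM and the side genes to 190 ± 32.1 TPM (SD, n = 36 libraries). Of the 50 members, 7 averaged 100 TPM or more, 29 averaged 10 to 100 TPM and 14 averaged 1 to 10 TPM. Every member but DIP-iota was above 0 in each of the 36 libraries. Between 45 and 50 members reached 1 TPM in each library.

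Among the dpr genes, dpr7 was highest with 190.8 ± 48.3 TPM, followed by dpr9 with 178 ± 39.2 TPM and dpr21 with 131 ± 40.1 TPM (SD, n = 36). dpr7 and dpr9 differed by less than the SD of either. The DIP genes, the receptors of the Dpr proteins, were led by DIP-beta with 160 ± 108 TPM, DIP-gamma with 48.5 ± 38.3 TPM and DIP-theta with 25.4 ± 8.23 TPM (SD, n = 36). The large SDs of DIP-beta and DIP-gamma went with values that differed widely by time of day. The highest beat genes were beat-IV with 153 ± 53.0 TPM, beat-Ib with 106 ± 26.1 TPM and beat-Ia with 82.4 ± 19.4 TPM (SD, n = 36). The highest side genes were side-IV with 74.7 ± 32.2 TPM, side-VII with 38.4 ± 7.34 TPM and side-VIII with 27.5 ± 6.44 TPM (SD, n = 36).

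**Figure D1:**
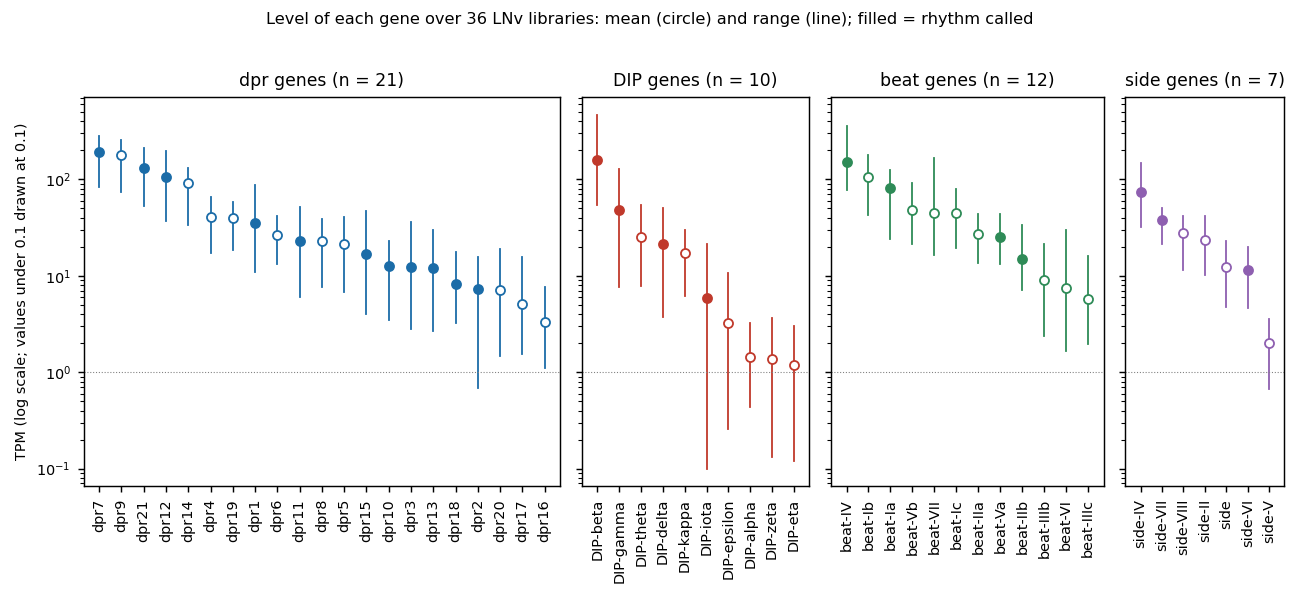
Level of each of the 50 members over the 36 LNv libraries, by family. Circles are means in TPM on a log axis, lines run from the lowest to the highest library, filled circles have a called shared rhythm and the dotted line is 1 TPM; the range is widest for DIP-iota, which was listed at 0 in 2 libraries and reached 21.3 TPM.

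The members just above the threshold were DIP-eta with 1.197 TPM, DIP-zeta with 1.37 TPM and DIP-alpha with 1.42 TPM. Just below it were DIP-lambda with 0.966 TPM, beat-IIIa with 0.750 TPM and side-III with 0.446 TPM. beat-Vc was not analysed here because no transcript in the table matched it. The members nearest the threshold were thus DIP genes, while dpr6 and dpr10, which encode the binding partners of DIP-alpha, averaged 26.3 and 12.5 TPM.

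Rhythms were tested on log2(TPM + 1) with a 24 h cosine curve common to the 3 conditions, and p-values were adjusted over all 8649 genes. A rhythm was called in 22 of 50 members (limma, adjusted p below 0.05), against 23.9% of all genes tested. The called members were 11 of 21 dpr genes, 4 of 10 DIP genes, 4 of 12 beat genes and 3 of 7 side genes. The median amplitude from mean to peak was 0.25 on the log2 scale over the members and 0.20 over all genes tested. Folds of rhythms below are from peak to trough of the fitted curve, on the log2(TPM + 1) scale, which understates the fold of low genes. P-values measure the spread of these libraries around the curve, which may be technical, since the labels do not say that time points came from separate pools of flies. Among markers of other cells, Tdc2 and Tbh, of tyramine and octopamine synthesis, and Dh44, a peptide gene of other clock neurons, had called rhythms with peaks at ZT8.36, ZT23.7 and ZT15.7 (3 of 29 tested), and no glial marker did (0 of 5).

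The largest called rhythms belonged to DIP genes. DIP-gamma, the receptor for Dpr11 and its close relatives, had 7.73, 26.6 and 129 TPM as lowest, median and highest value in HC18, 7.80, 37.4 and 113 TPM in LC25 and 10.6, 35.1 and 104 TPM in HC25. The 3 libraries of ZT08, the time of highest mean, averaged 108 ± 4.41 TPM (SD, n = 3). Those of ZT20, the time of lowest mean, averaged 9.83 ± 3.58 TPM (SD, n = 3). Both times were picked from the same values, as for other members below, so their lack of overlap is no test. DIP-theta, which had no called rhythm, also had no overlap between its highest and lowest times. The fitted fold of DIP-gamma was 9.95, with an amplitude of 1.66 ± 0.0938 on the log2 scale and a peak at ZT7.78 ± 0.216 h (SE; limma, adjusted p = 2.52e-16). DIP-gamma was thus high through the middle of the day and low through the middle of the night in every condition.

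DIP-delta, the receptor for Dpr12, was a night gene. It had 7.56, 14.1 and 37.9 TPM in HC18, 7.20, 13.2 and 50.6 TPM in LC25 and 3.72, 14.9 and 46.7 TPM in HC25 (lowest, median and highest). Its mean over the 3 conditions was 12.5 ± 0.797 TPM at ZT12 and 39.4 ± 13.3 TPM at ZT14, and stayed between 36.4 and 39.6 TPM at ZT16, ZT18 and ZT20 (SD, n = 3 each). The fitted fold was 4.54 with a peak at ZT17.5 ± 0.362 h (SE; limma, adjusted p = 3.32e-10). All libraries from ZT14 to ZT20 lay above all libraries from ZT02 to ZT12, times picked from the same values.

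DIP-iota was lowest late in the day and higher through the night. Early in the day it varied, with 7.38, 1.30 and 1.89 TPM at ZT02, 1.77, 0.887 and 1.27 TPM at ZT04 and 0.951, 0.397 and 4.42 TPM at ZT06 in HC18, LC25 and HC25. At ZT08, ZT10 and ZT12 every library lay below 1 TPM, with 0.329, 0.586 and 0.661 TPM in HC18, 0.213, 0.400 and 0.0719 TPM in LC25, and a listed 0 at ZT08 and ZT10 and 0.146 TPM at ZT12 in HC25. At ZT16 it had 14.5 TPM in HC18, 7.81 TPM in LC25 and 21.3 TPM in HC25. The values at ZT16, its time of highest mean, lay above those at ZT08 to ZT12, times picked from the same values. The 7.38 TPM of HC18 at ZT02 were above the 4.85 TPM of HC18 at ZT14 and its 2.63 TPM at ZT24. The fitted fold was 11.2 with a peak at ZT19.6 ± 0.386 h (SE; limma, adjusted p = 1.63e-09), and its size depended on the pseudocount, with 3.45 for log2(TPM + 5) and 40.7 for log2(TPM + 0.1). It remained a called night rhythm with both.

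DIP-beta, the highest DIP gene, was highest at ZT12 and ZT14. It had 82.5, 112 and 468 TPM in HC18, 68.7, 98.3 and 361 TPM in LC25 and 54.1, 136 and 359 TPM in HC25 (lowest, median and highest). The mean was 349 ± 92.7 TPM at ZT12 and 369 ± 93.6 TPM at ZT14, against 68.8 ± 14.2 TPM at ZT24 (SD, n = 3 each). ZT14 and ZT24 were its times of highest and lowest mean. The fitted fold was 3.52 with a peak at ZT12.4 ± 0.486 h (SE; limma, adjusted p = 3.27e-07). At ZT16 its mean was 172 ± 88.6 TPM (SD, n = 3), and at every other time outside ZT10 to ZT14 it was lower still.

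**Figure D2:**
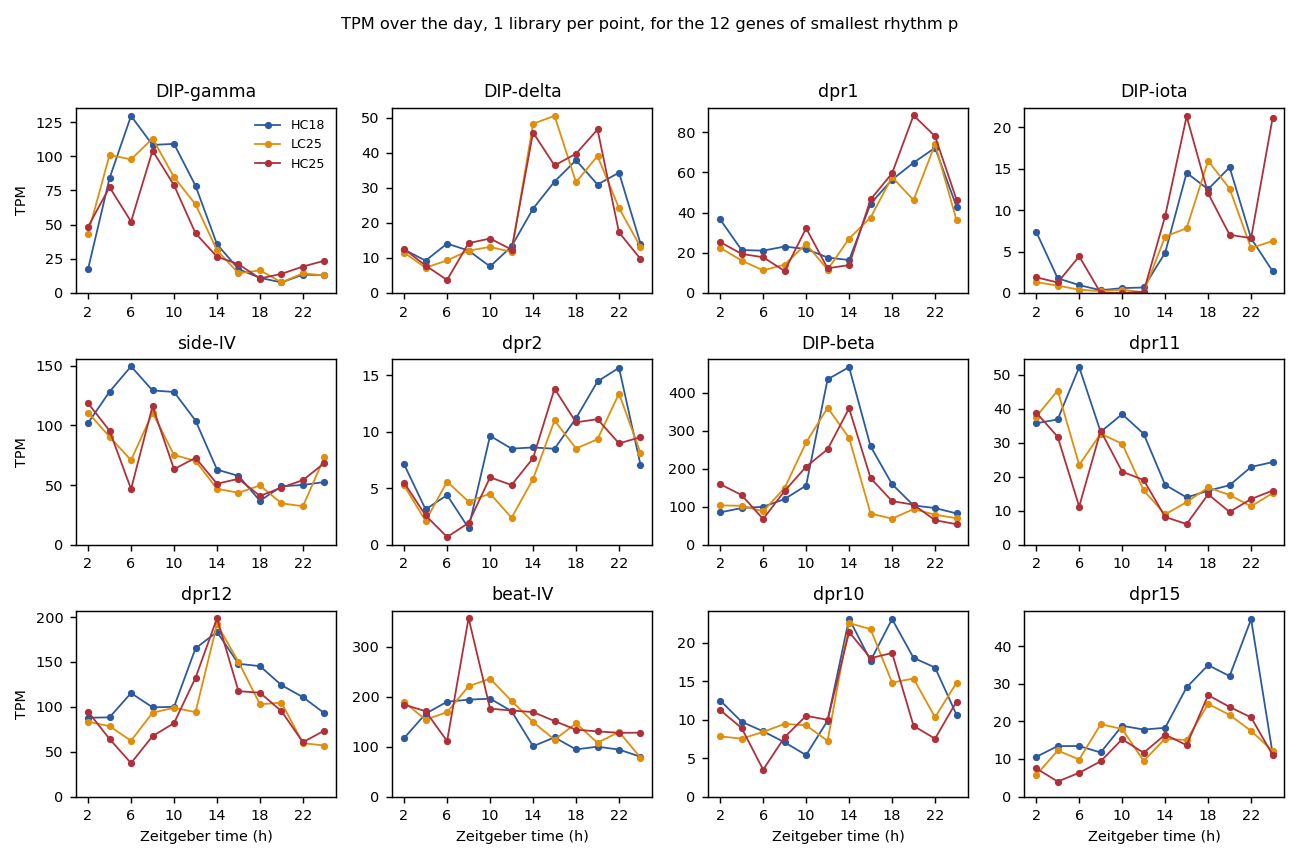
TPM of the 12 members of smallest rhythm p at each zeitgeber time, with 1 library per point and a line for each of HC18, LC25 and HC25. DIP-gamma, side-IV, dpr11 and beat-IV were high by day, DIP-beta peaked near ZT12 to ZT14, and DIP-delta, DIP-iota, dpr1, dpr2, dpr10, dpr12 and dpr15 were high at night; the low HC25 point at ZT06 recurs in many panels.

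Several dpr genes had called rhythms, most of them with night peaks, as had 66.8% of all genes with a called rhythm. dpr1, the founding member of the family, known from salt taste avoidance, had 16.4, 29.8 and 72.2 TPM in HC18, 11.2, 25.7 and 74.0 TPM in LC25 and 10.9, 28.8 and 88.3 TPM in HC25 (lowest, median and highest). Its mean was 74.7 ± 2.95 TPM at ZT22 and 13.8 ± 3.29 TPM at ZT12 (SD, n = 3 each), and its fold was 4.21 with a peak at ZT20.5 ± 0.371 h (SE; limma, adjusted p = 5.91e-10). dpr1 had the latest peak of all called members. dpr2 had a 3.47-fold rhythm with a peak at ZT18.9 and dpr3 had a 2.88-fold rhythm with a peak at ZT17.8 (limma, adjusted p = 2.79e-07 and 5.17e-05). The fold of dpr2 was 2.14 for log2(TPM + 5) and 4.45 for log2(TPM + 0.1).

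dpr10 and dpr15, with partners among the DIPs different from those of dpr1, peaked at ZT17.7 and ZT17.5 with folds of 2.33 and 2.50. dpr10 was at 22.3 ± 0.884 TPM at ZT14 and 6.79 ± 2.86 TPM at ZT06, and dpr15 was at 28.9 ± 5.41 TPM at ZT18 and 7.91 ± 2.45 TPM at ZT02 (SD, n = 3 each). Both were called, with adjusted p-values of 1.83e-05 and 2.42e-05 (limma). dpr12 had a 2.11-fold rhythm with a peak at ZT15.0 (limma, adjusted p = 2.53e-06), dpr13 a 2.58-fold rhythm with a peak at ZT15.8, and dpr7 and dpr21 smaller rhythms of 1.65-fold and 1.58-fold with peaks at ZT15.4 and ZT16.9. The 3 libraries of dpr21 at its highest time, ZT18, overlapped with those at its lowest time, ZT06.

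The called dpr genes with daytime peaks were dpr11 and dpr18. dpr11, which encodes a ligand of DIP-gamma, had 13.9, 28.5 and 52.2 TPM in HC18, 8.93, 16.4 and 45.4 TPM in LC25 and 6.08, 15.4 and 38.9 TPM in HC25 (lowest, median and highest). Its mean was 38.0 ± 6.87 TPM at ZT04 and 10.8 ± 4.18 TPM at ZT16 (SD, n = 3 each), and its fold was 2.85 with a peak at ZT5.39 ± 0.497 h (SE; limma, adjusted p = 5.25e-07). This was the earliest peak of all called members. dpr18 had a 1.95-fold rhythm with a peak at ZT9.92 (limma, adjusted p = 0.00190).

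Among side genes, side-IV, which encodes a binding partner of the Beat-II proteins, was highest by day. It had 36.8, 82.4 and 149 TPM in HC18, 32.2, 70.5 and 111 TPM in LC25 and 40.9, 59.2 and 119 TPM in HC25 (lowest, median and highest). The mean was 119 ± 9.60 TPM at ZT08 and 42.4 ± 6.58 TPM at ZT18 (SD, n = 3 each), and the fold was 2.51 with a peak at ZT6.43 ± 0.473 h (SE; limma, adjusted p = 1.77e-07). side-VI had a 1.88-fold rhythm with a peak at ZT15.7 (limma, adjusted p = 0.000182). side-VII had a 1.33-fold rhythm near the threshold (limma, adjusted p = 0.0474), and it was lost in 9 of 12 alternative settings.

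Of the beat genes, beat-IV had 79.7, 118 and 196 TPM in HC18, 78.0, 152 and 236 TPM in LC25 and 111, 160 and 357 TPM in HC25 (lowest, median and highest). The fold was 1.91 with a peak at ZT8.70 ± 0.588 h (SE; limma, adjusted p = 1.37e-05). Its highest value was in HC25 at ZT08, the library with 1306 TPM of glial markers, whose part in that value was not tested, and without this library, HC25 ZT06 and HC18 ZT24 the rhythm was still called. beat-IIb had a 2.06-fold rhythm with a peak at ZT10.6 and beat-Ia a 1.65-fold rhythm with a peak at ZT16.2 (limma, adjusted p = 0.000102 and 0.00117). beat-Va had a 1.44-fold rhythm near the threshold (limma, adjusted p = 0.0370) and was lost in 5 of 12 alternative settings.

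Peaks of the called members lay mainly in the night, as did those of all called genes. In 16 of the 22, or 72.7%, the peak fell between ZT12 and ZT24, against 66.8% of the 2065 genes with a called rhythm. The 3 h from ZT15 to ZT18 held 10 of the 22 peaks and 29.5% of those of all called genes. No called member peaked between ZT0 and ZT3 or between ZT21 and ZT24, which held 3.68% and 4.89% of all called genes, so that about 1 member in each would match the background. Of the 6 called members with daytime peaks, DIP-gamma had the largest fold.

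**Figure D3:**
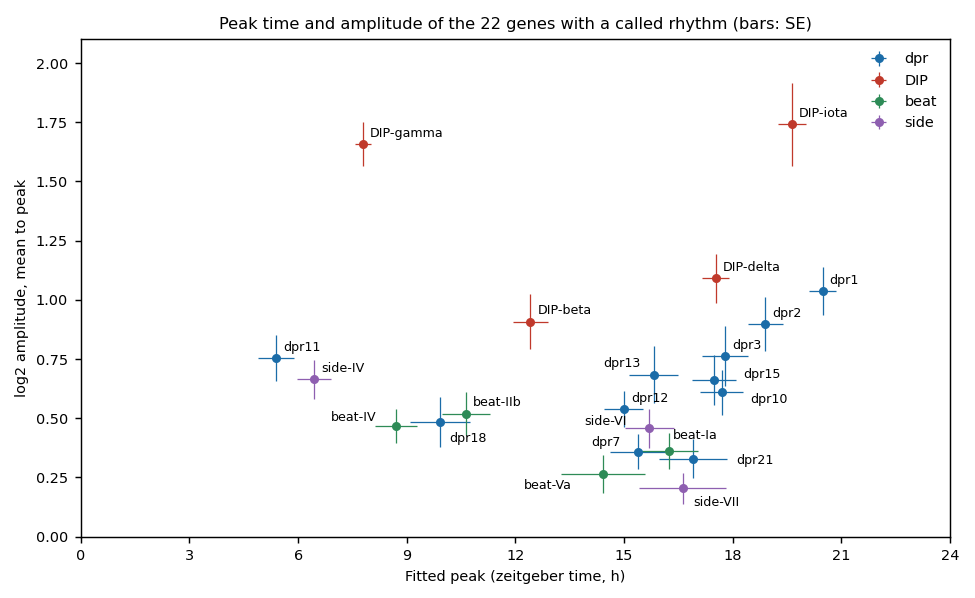
Fitted peak in zeitgeber time (h) against log2 amplitude from mean to peak for the 22 members with a called shared rhythm, with bars for SE and a colour for each family. DIP-gamma stands alone by day at an amplitude of 1.66, and 10 members lie between ZT15 and ZT18 with amplitudes at or below 1.09.

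The 28 members without a called rhythm included some of the highest. dpr9 had a fold of 1.27, dpr14, at 92.6 TPM, a fold of 1.11, and beat-Ib a fold of 1.40 (limma, adjusted p = 0.137, 0.732 and 0.0536). beat-VII, beat-Ib, dpr8 and beat-IIa had adjusted p-values between 0.0536 and 0.0685. DIP-theta had a fold of 1.09 (limma, adjusted p = 0.895), and it shares its listed Dpr partners with DIP-iota. With terms of both 24 h and 12 h in the curve, beat-IIa, beat-Ib, beat-VII, DIP-kappa, dpr8 and side-II were called as well, and beat-Va and side-VII were not.

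Overlap with other annotated genes may affect some of these values, and the use of strand in quantification is not stated in the labels or headers. Of the 50 members, 11 overlapped a gene with a mean of at least 1 TPM. DIP-beta overlapped CG10918, at 8.75 TPM with a 5.56-fold rhythm and a peak at ZT11.0 (limma, adjusted p = 1.80e-06), DIP-gamma overlapped CG11828, at 1.95 TPM with a 2.68-fold rhythm and a peak at ZT6.49 (limma, adjusted p = 8.44e-06), and dpr11 overlapped CG1137, at 5.02 TPM with a 1.86-fold rhythm and a peak at ZT5.26 (limma, adjusted p = 0.0321). In each of these 3 pairs the overlapping gene was lower than the member and peaked within 2 h of it. In 3 other pairs it was higher than the member. cno, at 16.2 TPM with a 2.62-fold rhythm and a peak at ZT11.2 (limma, adjusted p = 6.77e-07), overlapped dpr16, at 3.35 TPM, CG2875, at 5.77 TPM, overlapped DIP-alpha, at 1.42 TPM, and CG13539, at 2.25 TPM, overlapped side-V, at 1.99 TPM. How far these genes share exon sequence, and whether reads passed between them, was not tested.

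The level of a gene sums its transcripts, so rhythms were also tested for single transcripts, a choice made after seeing the data. Of the 74 member transcripts tested, 23 were called (limma), against 13.4% of all 14167 transcripts tested. The 3 main DIP-beta transcripts, RF, RG and RE, held 57.6%, 31.2% and 11.2% of its mean and were all called, with peaks at ZT13.0, ZT12.2 and ZT11.5. side-IV differed between its transcripts. Its RC form, with 61.6% of the mean, had a 3.85-fold rhythm (limma, adjusted p = 7.76e-06) and its RD form a 1.46-fold rhythm (limma, adjusted p = 0.151), a difference that was not tested. Quantification can divide reads among transcripts of a gene, so these shares are uncertain.

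Within single conditions, rhythms were called in 13 members in HC18, 12 in LC25 and 13 in HC25 (limma, joint fit), against 5.52%, 6.14% and 8.45% of all genes tested. DIP-beta, DIP-delta, DIP-gamma, DIP-iota, dpr1, dpr11 and dpr2 were called in all 3. Their peaks in different conditions lay at most 2.54 h apart, with DIP-beta at ZT13.6 in HC18, ZT11.0 in LC25 and ZT12.4 in HC25. beat-IV, dpr12, dpr15, dpr3 and side-IV were called in 2 conditions. In 1 condition alone, beat-IIb and dpr10 were called in HC18, dpr13 and side-VI in LC25, and beat-Ia, dpr21 and dpr7 in HC25. All of these 19 genes were also among the 22 called over the conditions together. The HC25 values of beat-Ia, dpr21 and dpr7 were lowest at ZT06, in the library that stood apart, with 24.1, 52.5 and 84.2 TPM. Without that library, HC25 rhythm calls over all genes numbered 548, against 731 with it. The member count in HC18 was 5 without the 4 HC18 libraries with the least fmt RNA, and that in HC25 was 6 when each condition was fitted alone.

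No rhythm differed between conditions after adjustment over all genes. In HC18 against HC25, 0 of 50 members were called (limma; 0% of all genes) and 3 had an unadjusted p under 0.05, with 316 such genes among all tested. In LC25 against HC25, 0 members were called (limma; 0% of all genes) and 1 had an unadjusted p under 0.05, with 355 such genes among all tested. The smallest p was that of DIP-gamma, whose fold was 14.4 in HC18, 11.4 in LC25 and 6.31 in HC25. Its rhythm vectors in HC18 and HC25 differed by 0.78 ± 0.202 on the log2 scale (SE; limma, p = 0.00205, adjusted p = 0.934). Its HC25 value at ZT06, in the library that stood apart, was 52.2 TPM, with 129 TPM in HC18 and 97.7 TPM in LC25 at that time. Its highest HC18 values, 129, 108 and 109 TPM at ZT06, ZT08 and ZT10, came from HC18 libraries with the least fmt RNA. LC25 had 97.7, 113 and 84.7 TPM at the same times, which lie near the fitted peak of the gene. How far single libraries altered this comparison was not tested. Without the 4 HC18 libraries low in fmt, DIP-gamma still had a called rhythm in HC18 (limma).

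Levels were compared between conditions over 12 time-matched pairs of libraries. In HC18 against HC25, 9 of 50 members differed (limma, adjusted p below 0.05), against 8.22% of all genes tested. Of these, 6 were higher in HC18 (5.92% of all genes) and 3 were lower (2.30% of all genes). The median log2 difference was 0.04 over the members and 0.04 over all genes tested. In the HC18 libraries of ZT06, ZT08, ZT10 and ZT22 the gene fmt was at 121 to 1603 TPM, against 6458 to 104615 TPM in the other 32 libraries. Without these 4 libraries none of the 9 was called (limma; 138 of all genes were), 8 had an unadjusted p under 0.05 and all 9 kept their sign. Among genes listed for other cells, Dh44 and Pxn were higher in HC18 and NPF and Yp1 lower (4 of 29 tested). Pxn, at 61.9 TPM, was the only haemocyte marker tested, as Hml, NimC1, He and eater averaged 0.224, 0.229, 0.379 and 0.274 TPM. The part of Dh44, Pxn, NPF and Yp1 in the members' differences was not tested.

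dpr11 had 13.9, 28.5 and 52.2 TPM in HC18 and 6.08, 15.4 and 38.9 TPM in HC25 (lowest, median and highest). It was higher in HC18 at 10 of 12 times, by 0.67 ± 0.147 on the log2 scale (SE; limma, adjusted p = 0.00474). dpr15, which encodes another ligand of DIP-gamma, averaged 21.6 ± 11.6 TPM in HC18 and 13.9 ± 7.13 TPM in HC25 (SD, n = 12 each). It was higher at 12 of 12 times, by 0.60 ± 0.149 (SE; limma, adjusted p = 0.0109). DIP-gamma itself averaged 52.1 ± 46.2 TPM in HC18 and 43.3 ± 30.0 TPM in HC25 (SD, n = 12 each), with a difference of −0.04 ± 0.164 (SE; limma, adjusted p = 0.905).

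dpr9 averaged 205 ± 32.7 TPM in HC18 and 156 ± 37.1 TPM in HC25, a difference of 0.42 ± 0.107 on the log2 scale (SD, n = 12 each; SE; limma, adjusted p = 0.0132). dpr12 averaged 122 ± 31.9 TPM in HC18 and 94.8 ± 42.5 TPM in HC25 (SD, n = 12 each), a difference of 0.44 ± 0.115 (SE; limma, adjusted p = 0.0166). Each was higher in HC18 at 10 of 12 times, and the ranges of the conditions overlapped. dpr21, which like dpr9 encodes a ligand of DIP-beta, moved the other way. It averaged 98.6 ± 25.0 TPM in HC18 and 147 ± 47.8 TPM in HC25 (SD, n = 12 each), a difference of −0.52 ± 0.151 (SE; limma, adjusted p = 0.0280), and it was lower at 9 of 12 times.

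Among beat genes, beat-VII had 33.3, 46.9 and 166 TPM in HC18 and 16.4, 37.1 and 70.6 TPM in HC25 (lowest, median and highest), a difference of 0.59 ± 0.133 on the log2 scale (SE; limma, adjusted p = 0.00539). The 166 TPM were a single library, HC18 at ZT12, and the gene was higher in HC18 at 11 of 12 times. beat-Vb averaged 63.7 ± 19.0 TPM in HC18 and 43.0 ± 15.7 TPM in HC25 (SD, n = 12 each), a difference of 0.58 ± 0.159 (SE; limma, adjusted p = 0.0211). The 4 HC18 libraries low in fmt averaged 88.4 ± 2.68 TPM of beat-Vb and the other 8 averaged 51.3 ± 6.52 TPM (SD), and without the 4 the difference was 0.30 ± 0.155 (SE; limma, adjusted p = 0.373).

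beat-Ic was lower in HC18. It averaged 34.1 ± 8.81 TPM in HC18 and 52.2 ± 14.5 TPM in HC25 (SD, n = 12 each), a difference of −0.59 ± 0.148 on the log2 scale (SE; limma, adjusted p = 0.0115), and it was lower at 11 of 12 times. Without the 4 libraries its difference was −0.59 ± 0.157 (SE; limma, adjusted p = 0.0524). side-II averaged 18.2 ± 5.40 TPM in HC18 and 26.7 ± 9.75 TPM in HC25 (SD, n = 12 each), a difference of −0.49 ± 0.146 (SE; limma, adjusted p = 0.0317). Of the 10 DIP genes, 0 were called in this comparison (limma), against 8.22% of all genes tested. A group of 10 is too small to set 0 apart from that share. Of the 10, 1 had an unadjusted p under 0.05, with 2120 such genes among all 8649 tested.

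**Figure D4:**
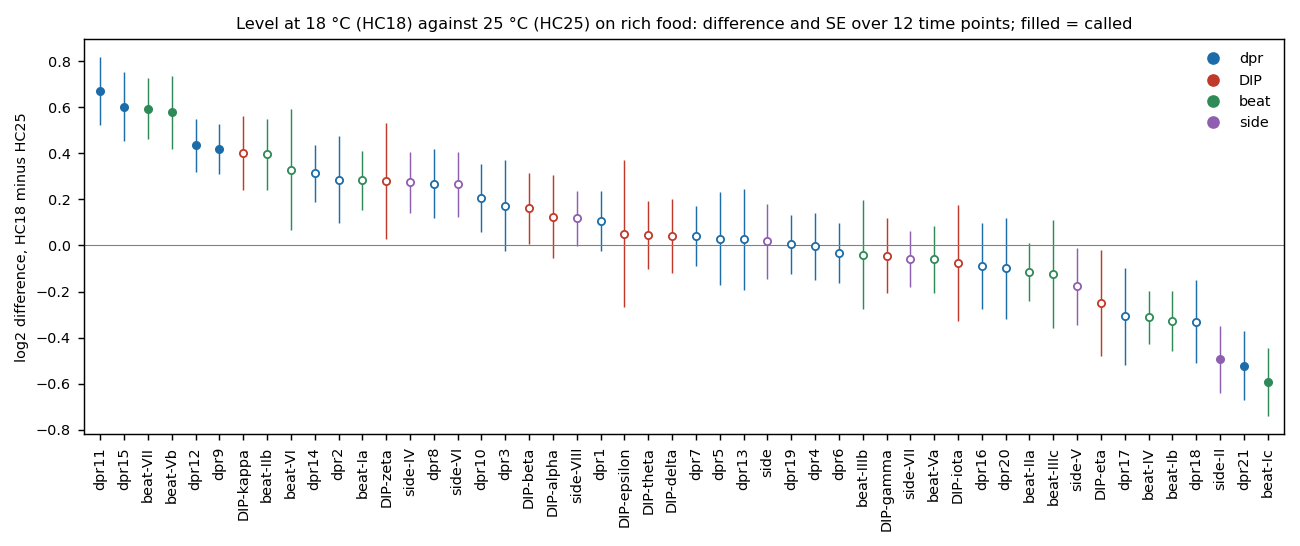
Log2 difference in level of each member in HC18 minus HC25, from the fit with 12 time-matched pairs, sorted by size, with bars for SE and filled circles for adjusted p below 0.05. The called members run from dpr11 at 0.67 to beat-Ic at −0.59, and the 10 DIP genes lie between 0.40 and −0.25 with none called, against 8.22% of all genes.

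In LC25 against HC25, 0 of 50 members were called (limma; 0% of all genes), and 1 member and 453 of all genes had an unadjusted p under 0.05. That member was dpr20, with 4.84 ± 1.72 TPM in LC25 and 8.42 ± 4.35 TPM in HC25 (SD, n = 12 each). The difference was −0.64 ± 0.218 on the log2 scale, lower at 11 of 12 times (SE; limma, adjusted p = 0.882). Both comparisons of level share the HC25 libraries.

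Binding partners were set side by side from a list of 41 Dpr-DIP and Beat-Side pairs, of which 40 joined members. The list was written from general knowledge of the binding between these proteins rather than taken from a file, it may be incomplete, and it gives DIP-kappa and DIP-lambda no partner. In 10 of the 40 both genes had a called rhythm, and in 6 of these the peaks lay within 3 h. These 6 included DIP-iota with each of dpr1, dpr2 and dpr3. They also included side-VI with beat-Va, whose call was kept in 7 of 12 alternative settings. Since 10 of the 22 called members peaked between ZT15 and ZT18, unpaired members can peak as close, and their share was not computed. Pairs share genes, so they are not independent, and the counts are a description of RNA levels only.

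For DIP-gamma, which peaked at ZT7.78, dpr11 peaked 2.39 h earlier, and the fitted peak of dpr15 was 9.71 h away, at night. Its other listed ligands were low, with dpr16, which cno overlaps, at 3.35 TPM and dpr17 at 5.09 TPM and no called rhythm (limma, adjusted p = 0.157 and 0.489). DIP-delta and dpr12, each other's only listed partner, peaked 2.54 h apart in the night, and dpr12, at 105 TPM, had the higher level, with 21.5 TPM for DIP-delta. DIP-iota peaked within 0.852 h of dpr1, 0.726 h of dpr2 and 1.84 h of dpr3. Its further listed partners dpr4, at 40.8 TPM, and dpr5, at 21.3 TPM, had no called rhythm (limma, adjusted p = 0.243 and 0.227).

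DIP-beta was at a level like those of its listed ligands dpr9 and dpr21, the highest pairing by RNA among the DIPs. dpr21 peaked 4.504 h after DIP-beta, while dpr9 and dpr8, at 22.9 TPM, had no called rhythm. DIP-epsilon and DIP-zeta, at 3.22 and 1.37 TPM, were far below their listed partners dpr14, at 92.6 TPM, and dpr19, at 40.2 TPM. dpr18, the called gene among their partners, averaged 8.18 TPM. In these libraries dpr14 and dpr19 were thus high in RNA while their listed DIP receptors were low. The RNA was amplified, and how far that altered levels between genes was not tested.

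Among Beat-Side pairs, side-IV peaked 4.19 h before beat-IIb, and beat-IIa, at 27.2 TPM, had no called rhythm. side-VI peaked 1.28 h after beat-Va, and its other member partner beat-Vb, at 48.0 TPM, had no called rhythm (limma, adjusted p = 0.168). side-VII and beat-IV peaked 7.92 h apart. side, at 12.4 TPM, and side-II and beat-VI, at 23.6 and 7.40 TPM, had no called rhythm (limma, adjusted p = 0.256, 0.437 and 0.894), while beat-Ia, the partner of side, peaked at ZT16.2.

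**Figure D5:**
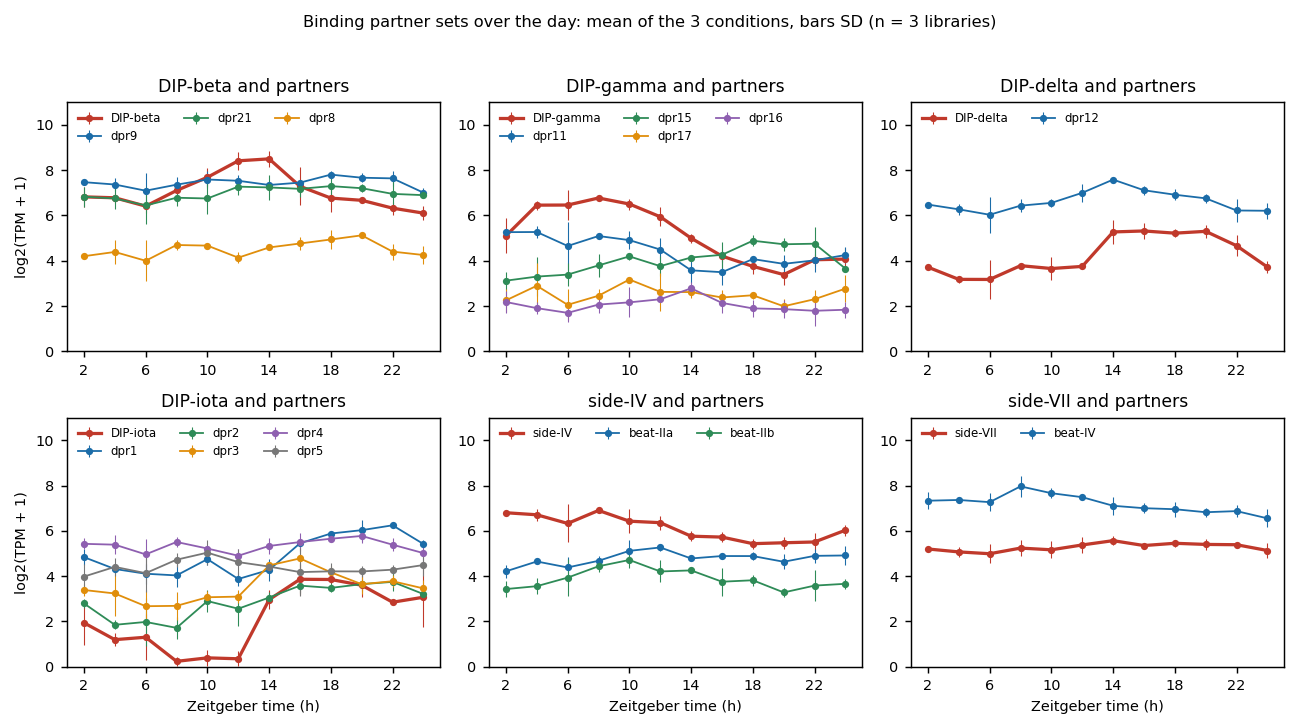
Levels over the day of 6 receptor genes (thick red lines) and their listed binding partners, as the mean log2(TPM + 1) of HC18, LC25 and HC25 at each zeitgeber time with bars for SD (n = 3 libraries). DIP-gamma and dpr11 were both high by day while dpr15 was high by night, and DIP-iota, dpr1, dpr2 and dpr3 were all higher after ZT14 than at ZT8.

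The authors' deposited table of rhythms over all 36 libraries, made with BooteJTK, a rank test, listed 49 of the 50 members and held an adjusted p below 0.05 for 20 of them, against 23.1% of all genes in it. All 20 were among the 22 called here, and beat-Va and dpr18 were called here alone. In the authors' deposited table for the 25 °C libraries, 15 of 49 passed, against 10.8% of all genes in it. The peak times of the 20 genes in the authors' deposited table and in the cosine fit differed by a median of 1.59 h, and 15 of the 20 by no more than 3 h. The widest gap was that of side-IV, with a peak at ZT2.00 in the authors' deposited table and at ZT6.43 in the fit.

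The genes with time courses most like the members of smallest rhythm p were sought among 5282 genes with a mean of at least 10 TPM. For DIP-gamma they were Shab, a voltage-gated potassium channel, with a Pearson r of 0.926, mtgo with 0.912, and Dh31, a neuropeptide gene, with 0.902. For DIP-delta they were Calx, a sodium-calcium exchanger, with 0.909, psq, a BTB transcription factor, with 0.876, and CG43373 with 0.875. These are descriptions over 36 libraries that share their time points and the scale of each library.

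Other recognition molecules gave the setting for these families. Of a list of 63 further neuronal recognition and adhesion genes, 55 were tested and 30 had a called rhythm, against 23.9% of all genes tested, with a median log2 amplitude of 0.29. robo3 and sli, the receptor and ligand of the Slit pathway of axon guidance, had 9.68-fold and 4.10-fold rhythms with peaks at ZT6.56 and ZT7.49 (limma, adjusted p = 3.74e-15 and 1.47e-11). unc-5, a Netrin receptor, had a 3.45-fold rhythm with a peak at ZT7.42, and Con, a homophilic adhesion protein with leucine-rich repeats, a 3.22-fold rhythm with a peak at ZT6.21. fred, an immunoglobulin family relative of ed, had a 4.78-fold rhythm with a peak at ZT21.5, and klg, a homophilic adhesion protein, a 5.34-fold rhythm with a peak at ZT1.10.

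In level, 2 of the 55 tested genes of that list were higher and 0 lower in HC18 than in HC25, against 5.92% and 2.30% of all genes. They were bdl, by 1.04 on the log2 scale with 8.22 TPM in HC18 and 4.58 TPM in HC25, and Fas2, a homophilic adhesion protein, by 0.39 with 167 TPM in HC18 and 130 TPM in HC25 (limma, adjusted p = 0.00796 and 0.0372). Whether bdl and Fas2 were called without the 4 HC18 libraries low in fmt is not reported here. Over all genes, 138 were called without those libraries and 711 with them. With all libraries, CadN2 and Fili of that list followed with differences of 0.42 and −0.42 (limma, adjusted p = 0.0620 and 0.0894). In LC25 against HC25 none was called (limma), with adjusted p-values of 0.936 for ed and Toll-7 and 0.973 for sli and Lac, the 4 genes of smallest p.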

How the data were processed

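RNA of sorted LNv neurons was amplified with T7 RNA polymerase between rounds of cDNA synthesis, per the labels' protocols. The authors deposited TPM per transcript, made with kallisto per the submitters' processing notes; the version, transcript set and genome build were not given in the sources used here. TPM carry no depth, so no counting interval is given. Transcripts were summed to genes with Ensembl release 115 names (30246 of 30485 matched). limma 3.58.1 (R 4.3.3, eBayes with a trend) was run on log2(TPM + 1) for every gene that averaged at least 1 TPM, with 24 h cosine and sine terms for rhythms and condition plus time point as factors for levels. Benjamini-Hochberg adjustment of p-values ran over all of these genes. Per the file headers, the authors' deposited rhythm tables hold a score, a mean peak phase and p-values.

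Members, lists and alternatives were chosen with earlier results of these data known. Named genes were all called members, the 3 highest per family, those nearest the threshold, listed partners of called members, the recognition genes of smallest p (6 for rhythm, 4 per level test) and up to 3 genes most like each of the 2 members of smallest p. The model was tested on simulated data.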

Additional observations from a re-analysis of the deposited data

How the results depend on the processing

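Over 12 alternative settings (pseudocount, filter, scaling, left-out libraries, moderation, 12 h terms), between 20 and 26 members had a called shared rhythm, and 19 of the 22 named in the report were called in every one. side-VII was lost in 9, beat-Va in 5 and dpr21 in 1 (median ratio scaling, limma adjusted p = 0.0668). Rhythm calls in HC25 numbered 6 with each condition fitted alone (DIP-delta, DIP-gamma, DIP-iota, dpr1, dpr15 and dpr2), against 13 in the joint fit. Without the 4 HC18 libraries low in fmt, rhythm calls in HC18 numbered 5 (DIP-beta, DIP-delta, DIP-gamma, dpr1 and side-IV), against 13, and HC18 level calls numbered 0, against 9; both fits had fewer samples. The level fit takes the time point as its block. With no replicate block but rhythm terms it called 8 members, and with no replicate block and no rhythm terms 2 (beat-Ic and dpr9). The HC18 calls split into 6 higher and 3 lower members, and 6 and 5 under median ratio scaling and under quantile normalization. Over all genes the split was 512 higher and 199 lower, against 553 and 525 with median ratios and 594 and 449 with quantiles. Of the repeats of single-gene results, 806 kept their direction and side of the threshold, 75 fell short of it, 4 newly passed and 0 turned round. Because the depth is unknown, low members such as DIP-iota have no stated detection limit.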
